A study of Mus musculus with 8 samples.

Results

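The response of 48 genes of the transforming growth factor (TGF)-beta, bone morphogenetic protein (BMP) and activin pathways was followed in primary myofibroblastic hepatic stellate cells (pMF-HSCs) treated with an inhibitor of protein O-GlcNAcylation. The 48 genes, out of 40840 in the deposited tables, were chosen by name as ligands, latent TGF-beta binding proteins, secreted antagonists, receptors, SMAD proteins, corepressors, ubiquitin ligases and targets, and not by a threshold on a measured value. Earlier results of these data were known when the genes were chosen, so the choice was not independent of the data. Hepatic stellate cells of male C57BL/6J mice aged 15 to 18 weeks had been separated on a density gradient, sorted on the autofluorescence of their retinol and grown on plastic for 7 days, a culture in which they turn into collagen-secreting myofibroblasts without an added stimulus. The control group (n = 4) received the vehicle, DMSO, and the OGTi group (n = 4) received OSMI-1 at 50 µM, an inhibitor of the O-GlcNAc transferase OGT, both for 24 h. No group carries a transgene or deletion, and the model is limited to spontaneous activation in culture and to 1 dose and 1 time. Each of the 4 replicate numbers is an independent experiment that gave 1 control and 1 OGTi library, and libraries of the same number were treated as a pair.

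Ligands of this superfamily bind pairs of type I and type II receptor kinases, which phosphorylate SMAD proteins that move to the nucleus with SMAD4. TGF-betas and activins act mainly through SMAD2 and SMAD3, and BMPs mainly through SMAD1, SMAD5 and SMAD9, whereas SMAD6 and SMAD7 are inhibitory. In the liver, TGF-beta is the classical fibrogenic cytokine of stellate cells, and TGF-beta ligands are secreted in a latent complex with LTBP proteins from which they must be released.

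The libraries held 30068876 to 37372420 counts each. The 10 most abundant genes took 6.73% to 7.76% of the counts in control and 10.9% to 15.8% in OGTi libraries, and OGTi replicate 4 had counts in 23746 genes whereas the other libraries had counts in 19035 to 20293. Transcripts of Ogt, the gene of the drug's target enzyme, were at 3939.6, 5204, 3985 and 4289 scaled counts in control replicates 1 to 4 and at 2129, 5195, 5525 and 3697 in OGTi replicates 1 to 4, a log2 fold change of -0.16 ± 0.24 with adjusted p = 0.714. OSMI-1 acts on the enzyme, so this transcript does not check the labels. Stellate cell and myofibroblast markers summed to 1982 to 3899 TPM in control and 1649 to 3388 TPM in OGTi libraries, with each of the 12 genes tested and detected in both groups. Most of the sum was Acta2, at 1556 to 2587 and 1310.1 to 2179 TPM. Of the 12 markers 3 were called lower (25%, where 10.2% of all genes tested were called lower). These were Lrat (6.51 to 18.0 TPM in control and 2.3 to 2.94 TPM in OGTi libraries, log2 fold change -1.78 ± 0.28), Pdgfra (20.8 to 97.0 and 4.14 to 15.3 TPM, -1.95 ± 0.38) and Pdgfrb (56.3 to 171 and 10.9 to 37.4 TPM, -1.68 ± 0.24), and their part in the pathway genes' values was not tested. TPM is a transcript level relative to the library's whole transcript pool, scaled for gene length, and is used below to compare levels between genes. Scaled counts, used to compare libraries, are counts divided by the library size after trimmed mean of M-values (TMM) normalisation and brought to the average library. Values after ± are standard errors (SE) of a log2 fold change.

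A total of 46 pathway genes could be tested. Bmp7 had 0 counts in every library, and Nog, whose 3 counts were spread over control replicate 1 and OGTi replicates 2 and 4, stayed below the minimum of 10 counts in total. In the paired edgeR quasi-likelihood fit, 18 of the 46 (39.1%) were called at an adjusted p of at most 0.05 (Benjamini-Hochberg over all 19963 genes tested), where 18.4% of all genes tested were called. Of these, 17 were lower in OGTi (37.0%, where 10.2% of all genes were called lower) and 1, Tgif1, was higher (2.17%, where 8.13% of all genes were called higher). The median log2 fold change was -0.52 over the 46 pathway genes and 0.01 over all genes tested. Each of the 18 called genes moved in 1 direction in all 4 pairs, as did 26 of the 46 tested pathway genes and 40.9% of all genes tested. In bulk RNA, a change in the number of cells of a type and a change in RNA per cell cannot be told apart.

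**Figure D1:**
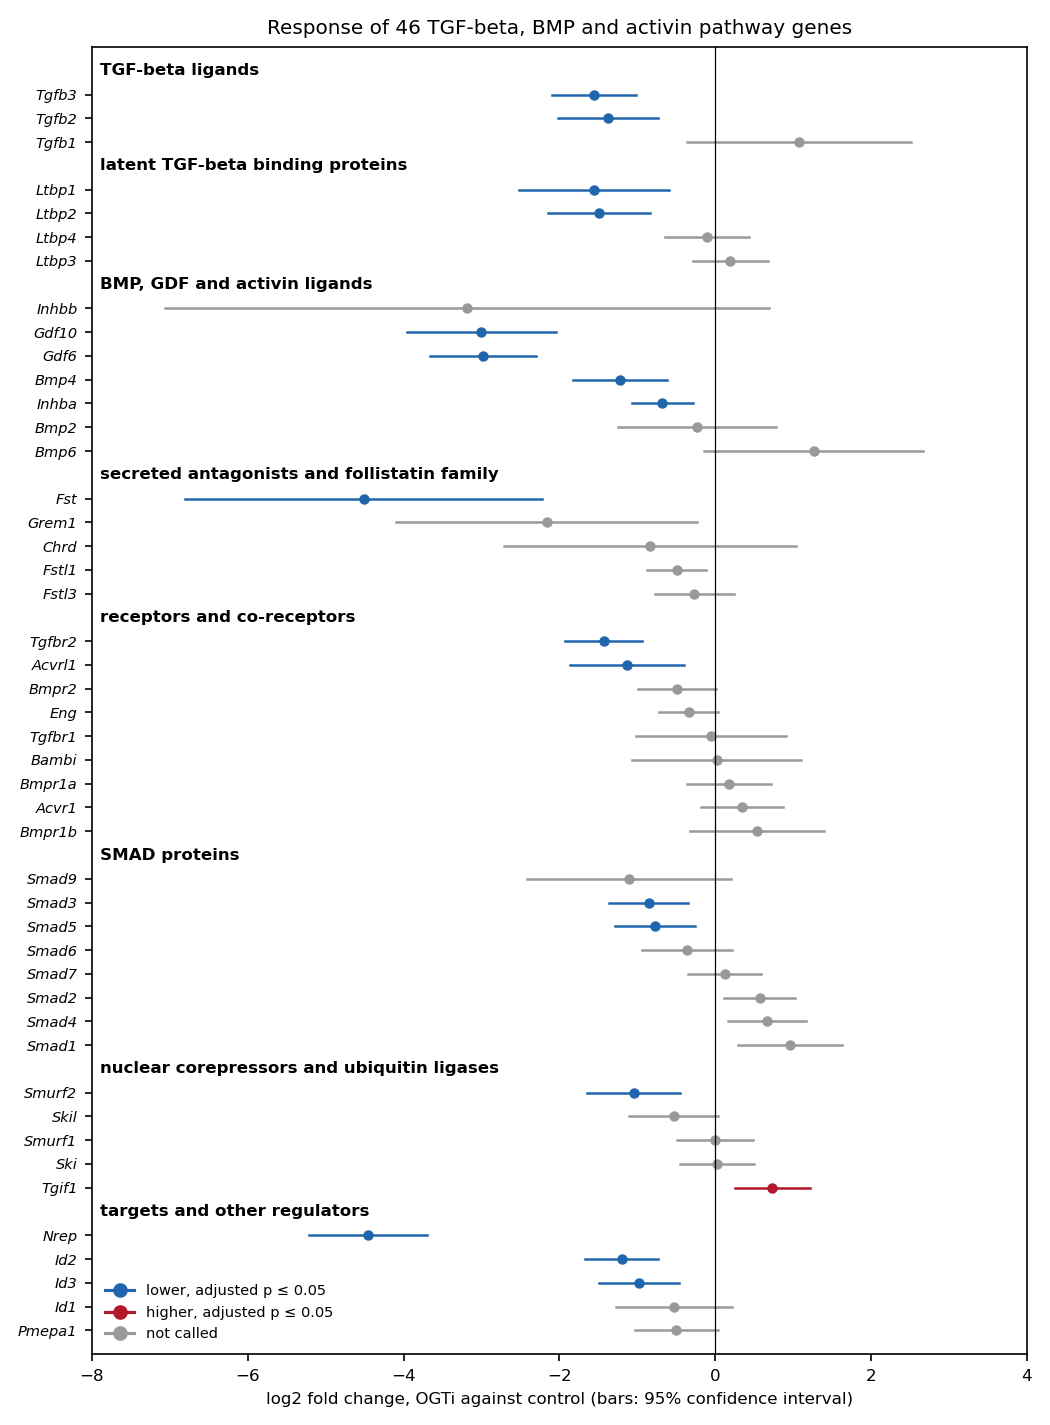
Log2 fold changes of the 46 tested pathway genes in OGTi against control pMF-HSCs, grouped by role, from the paired edgeR fit over 4 control and 4 OGTi libraries, where points are estimates and bars 95% confidence intervals. Genes called lower (blue, 17) lie in every role, and Tgif1 (red) is the single gene called higher.

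Promoter sequences are shown for 4 genes because they carry the letters that SMAD proteins are known to bind and because these genes come from different parts of the pathway: a ligand, a SMAD, a ubiquitin ligase and a target. A RefSeq promoter of 300 bases (250 before and 50 after the transcript start, build GRCm38.p6) was matched by symbol for 33 of the 48 genes. The motifs searched, on both strands, were the palindromic SMAD element GTCTAGAC, the SMAD box CAGACA and the GC-rich SMAD element known from BMP targets, GGCGCC. None of these contains another. Capitals mark the motif, and positions count from the first transcribed base as position 1.
Tgfb2: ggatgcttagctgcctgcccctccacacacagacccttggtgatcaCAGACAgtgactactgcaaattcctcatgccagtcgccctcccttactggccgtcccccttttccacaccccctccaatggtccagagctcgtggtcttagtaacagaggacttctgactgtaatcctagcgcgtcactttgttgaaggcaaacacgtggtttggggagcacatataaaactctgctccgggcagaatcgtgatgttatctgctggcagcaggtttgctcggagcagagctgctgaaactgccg
Smad6: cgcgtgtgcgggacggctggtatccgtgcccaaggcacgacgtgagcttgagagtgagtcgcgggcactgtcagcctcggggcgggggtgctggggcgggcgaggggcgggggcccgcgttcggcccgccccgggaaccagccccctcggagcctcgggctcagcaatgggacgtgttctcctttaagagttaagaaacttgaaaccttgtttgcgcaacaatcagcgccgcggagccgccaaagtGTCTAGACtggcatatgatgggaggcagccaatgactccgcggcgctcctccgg
Smurf2: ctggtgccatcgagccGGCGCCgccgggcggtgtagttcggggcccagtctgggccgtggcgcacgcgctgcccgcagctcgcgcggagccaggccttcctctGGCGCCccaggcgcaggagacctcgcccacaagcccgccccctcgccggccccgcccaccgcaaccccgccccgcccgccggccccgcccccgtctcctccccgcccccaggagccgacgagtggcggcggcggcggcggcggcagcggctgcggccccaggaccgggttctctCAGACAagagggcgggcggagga
Id2: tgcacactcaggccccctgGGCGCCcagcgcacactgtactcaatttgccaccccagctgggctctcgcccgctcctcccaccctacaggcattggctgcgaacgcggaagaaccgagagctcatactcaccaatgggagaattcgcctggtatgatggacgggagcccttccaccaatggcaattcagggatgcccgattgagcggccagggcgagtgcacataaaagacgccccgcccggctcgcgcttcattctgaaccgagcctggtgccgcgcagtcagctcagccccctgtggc
In this window, at chr1:186705940-186706239, minus strand of GRCm38.p6, Tgfb2 holds CAGACA with its first base at position -204. The Smad6 promoter (chr9:64022010-64022309, minus strand) holds GTCTAGAC from position -4, across the transcript start. Smurf2 (chr11:106920666-106920965, minus strand) holds GGCGCC at positions -234 and -147 and CAGACA at position 28, and Id2 (chr12:25096043-25096342, minus strand) holds GGCGCC at position -231. CAGACA was found in a promoter of 10 of the 33 genes (30.3%) and of 23.6% of 27025 genes in the RefSeq table, GGCGCC in 12 of 33 (36.4%) against 13.4% of genes, and GTCTAGAC in Smad6 alone (3.03%) against 0.248% of genes. Among the 12 genes called lower that have a promoter, 4 held GGCGCC (Gdf10, Id2, Smad5 and Smurf2) and 3 held CAGACA (Ltbp1, Smurf2 and Tgfb2), whereas among the 20 that were not called 8 held GGCGCC and 6 held CAGACA. A match describes letters in this window and is not a binding site. No promoter entry was matched for Acvrl1, Bambi, Bmp2, Bmp7, Fst, Gdf6, Id1, Nog, Nrep, Pmepa1, Skil, Smad2, Smad4, Smad7 and Tgfb3.

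Among the 3 TGF-beta ligands, Tgfb2 and Tgfb3 were lower in OGTi and Tgfb1 was listed at a low level in both groups. Tgfb3 (chr12:86102756-86126301 of GRCm39, the build of all gene positions below) was by far the most abundant ligand gene of the trio, with 112 to 241 TPM in control and 16.3 to 105 TPM in OGTi libraries, and it made up 90.8% to 96.6% of the summed ligand TPM in control and 89.3% to 94.4% in OGTi. Its scaled counts were 7333, 7551, 13492 and 15505 in control replicates 1 to 4 and 1541, 2316, 5261 and 8328 in OGTi replicates 1 to 4. Control replicates 3 and 4 and OGTi replicates 3 and 4 were each the higher ones of their group, so that OGTi replicate 4 exceeded control replicates 1 and 2 and the groups overlapped, while every pair fell. The paired fit gave a log2 fold change of -1.55 ± 0.24, or 2.93-fold lower, with adjusted p = 0.00234, and without the pairing Tgfb3 was no longer called. Exons of Tgfb3 share 179 bases with Ttll5 on the opposite strand, and the counting was strand-specific per the study's methods.

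Tgfb2 (chr1:186354985-186438294) had scaled counts of 804, 1354, 1617 and 956 in control and 303, 344, 497 and 731 in OGTi libraries. All OGTi values lay below all control values, although OGTi replicate 4 came close to the lowest control. Tgfb2 was 2.59-fold lower (log2 fold change -1.37 ± 0.29), with adjusted p = 0.00911, and the call was lost without replicate 3. Tgfb1 (chr7:25386390-25404506), the prototype of the family, had only 7.34, 22.9, 6.45 and 16.4 scaled counts in control and 14.3, 11.2, 33.1 and 60.9 in OGTi libraries, or 0.17 to 0.59 and 0.25 to 1.29 TPM. This is low for a gene that is widely expressed, and the assignment of reads to Tgfb1, which also enters the share of Tgfb3 in the ligand TPM, could not be checked from the gene tables. It was higher in OGTi in 3 of 4 pairs, with a log2 fold change of 1.08 ± 0.65 and adjusted p = 0.287, and its 95% interval of -0.36 to 2.51 includes both no change and a rise of over 4-fold. The summed TPM of the 3 ligands ranged from 118.7 to 249 in control and from 18.2 to 112 in OGTi libraries.

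The latent TGF-beta binding proteins split into a pair that fell and a pair without a call. Ltbp1, which binds latent TGF-beta covalently and anchors it in the matrix, had scaled counts of 8337, 7334, 14796 and 15333 in control and 741, 5522, 7898 and 5054 in OGTi libraries. OGTi replicate 1 was far below the other OGTi libraries, and OGTi replicate 3 exceeded control replicate 2, so the groups overlapped. Ltbp1 had a log2 fold change of -1.55 ± 0.43, with adjusted p = 0.0318. Without replicate 1 it was -0.97 and still called, whereas the call was lost without replicate 4 and without the pairing.

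Ltbp2, a fibrillin-associated member of the family that does not bind latent TGF-beta, had 555, 925, 1182 and 1073 scaled counts in control and 94.2, 419.9, 618 and 397 in OGTi libraries. Again OGTi replicate 1 was the lowest, and OGTi replicate 3 exceeded control replicate 1. Its log2 fold change was -1.50 ± 0.29 with adjusted p = 0.00668, a call lost without the pairing. Ltbp3 ranged over 556 to 906 in control and 517 to 1143 in OGTi libraries (log2 fold change 0.20 ± 0.21, adjusted p = 0.59), and Ltbp4 over 122 to 338 and 113 to 362 (log2 fold change -0.10 ± 0.24, adjusted p = 0.83). Per length, Ltbp1 made up 79.0% to 86.0% of the summed Ltbp TPM in control and 45.4% to 77.8% in OGTi libraries, and the share of Ltbp3 was 5.44% to 8.50% in control and 14.3% to 40.1% in OGTi.

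Of the 7 tested BMP, GDF and activin ligands, 4 fell without overlap between the groups (4 of 7, where 12% of all genes tested were lower without overlap) and none of the 7 was called higher. Gdf6 (chr4:9844350-9862354), a BMP-type ligand known from joint development, had 1719.8, 2509.8, 1523 and 1009 scaled counts in control and 388, 269, 107 and 150.5 in OGTi libraries. The highest OGTi value was well under the lowest control value. In the paired fit Gdf6 was 7.88-fold lower (log2 fold change -2.98 ± 0.31), with adjusted p = 0.000343, and Gdf6 was called under all 12 alternative settings. Gdf10 (chr14:33645273-33659940), also known as Bmp3b, was lower by a similar factor at a much lower level, with 116, 101, 87.5 and 52.0 scaled counts in control and 14.3, 8.93, 6.62 and 13.8 in OGTi libraries. The fall of Gdf10 was 8.01-fold (log2 fold change -3.00 ± 0.43), with adjusted p = 0.00157, also called under all 12 settings. The log2 fold change of Gdf10 was -0.98 on the log2(TPM + 1) scale, which understates changes of low genes, and -2.57 on the log2(TPM + 0.1) scale.

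Bmp4 (chr14:46620250-46636745) had 239, 449, 510.1 and 593 scaled counts in control and 172, 189.8, 150.1 and 229 in OGTi libraries. Control replicate 1 stood at little more than the highest OGTi value, and the other controls were further away. Bmp4 was 2.33-fold lower (log2 fold change -1.22 ± 0.27), with adjusted p = 0.0118, and the call was lost without replicate 3 and without replicate 4. Inhba (chr13:16186373-16206206), which encodes the subunit of activin A, was the most abundant ligand gene of this group, with 26329, 19677, 18598 and 21956 scaled counts in control and 16876, 10408, 12723 and 14362 in OGTi libraries. It fell in all 4 pairs and the groups did not overlap, with a log2 fold change of -0.68 ± 0.18, 1.60-fold lower, and adjusted p = 0.0242. The call was kept under 6 of 12 alternative settings and was lost without the pairing, under upper-quartile scaling, with the length trend removed, and without replicate 2, 3 or 4.

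Per length, Inhba had a larger share of these ligands in OGTi than in control, without overlap between the groups. Its share of the summed TPM of these ligands was 69.4% to 81.5% in control and 85.6% to 89.6% in OGTi libraries, while the share of Gdf6 was 8.87% to 21.4% in control and 1.82% to 5.37% in OGTi. The summed TPM itself was 156.9 to 195 in control and 67.8 to 83.9 in OGTi libraries. These shares are a description of levels and were not tested. Bmp2 spread widely in OGTi, with 112 to 193 scaled counts in control and 53.6 to 389 in OGTi libraries (log2 fold change -0.23 ± 0.46, adjusted p = 0.781). Bmp6, which controls iron handling in the liver, was near the limit of counting at 2.76 to 23.7 and 12.6 to 34.6 scaled counts and was higher in OGTi in 4 of 4 pairs without a call (log2 fold change 1.27 ± 0.63, adjusted p = 0.201). Inhbb, the subunit of activin B, had 15 counts over the control and 1 count over the OGTi libraries, a ratio of 12.6 relative to the TMM-scaled library sizes, with an exact 95% counting interval of 1.94 to 529.5, and adjusted p = 0.24.

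**Figure D2:**
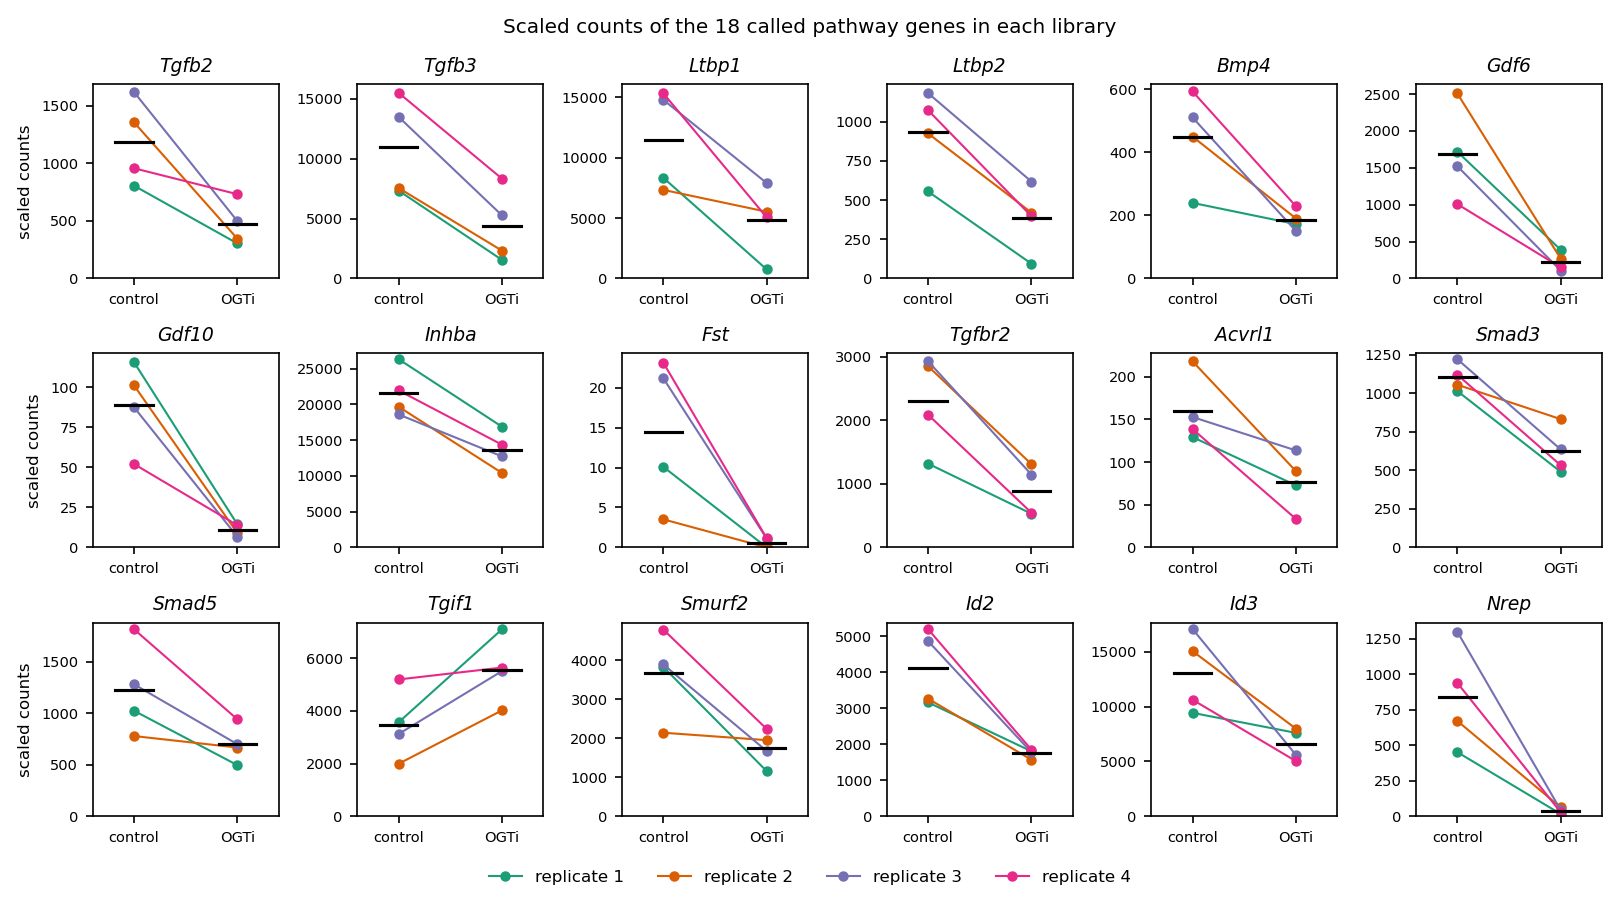
Scaled counts (counts at the mean TMM library size, linear axes from 0) of the 18 called pathway genes, where each line joins the control and OGTi library of a replicate number and black bars are group means. All lines fall except those of Tgif1, and the lines of Nrep, Gdf6, Gdf10 and Fst end near 0.

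Of the secreted antagonists, Fst alone was called, and it was called on few counts. Fst encodes follistatin, which binds and neutralises activins. It had 10.1, 3.52, 21.2 and 23.1 scaled counts in control and 0, 0, 1.10 and 1.15 in OGTi libraries, from 62 counts over the control and 2 over the OGTi group. Relative to the TMM-scaled library sizes, the ratio of control to OGTi counts was 26.0, with an exact 95% counting interval of 6.90 to 219. The adjusted p was 0.0136, and the call was lost without replicate 3 and without replicate 4. Fstl1, a follistatin-like glycoprotein of mesenchymal cells, carried 85.9% to 94.5% of the TPM of this group in control libraries. It had 36512 to 65022 scaled counts in control and 28303 to 41469 in OGTi libraries, and a log2 fold change of -0.49 ± 0.17 with adjusted p = 0.0712, so that it missed the threshold. It was lower in 4 of 4 pairs, and it was called when libraries were scaled by their totals alone and in both TPM fits.

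Fstl3, another activin-binding protein, had 1802 to 3026 and 1507 to 2359 scaled counts (log2 fold change -0.27 ± 0.23, adjusted p = 0.466), and 1157 of its exon bases overlap Prss57 on the opposite strand. Grem1, a BMP antagonist, had 9.63 to 21.2 and 0 to 14.5 scaled counts, with a log2 fold change of -2.16 ± 0.87 and adjusted p = 0.116, and it was called in both TPM fits. Chrd, which encodes the BMP antagonist chordin, had 7.71 to 33.9 and 1.10 to 21.8 (log2 fold change -0.84 ± 0.84, adjusted p = 0.551). Fst, Grem1, Chrd and Nog stayed under 1 TPM in every library.

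Among 9 receptors and co-receptors, Tgfbr2 and Acvrl1 fell and the type I TGF-beta receptor gene Tgfbr1 was not called. Tgfbr2 (chr9:115913361-116004800), the type II receptor that binds TGF-beta first, had 1319.9, 2854, 2933 and 2091 scaled counts in control and 530.5, 1312, 1148 and 547 in OGTi libraries. The lowest control, replicate 1, was level with the highest OGTi library, replicate 2, and within each pair the value fell clearly. The fall was 2.69-fold (log2 fold change -1.43 ± 0.22), with adjusted p = 0.00229, and Tgfbr2 was called under all 12 alternative settings. Tgfbr1 (chr4:47353134-47414931), its signalling partner, had 913, 351, 1107 and 1125 scaled counts in control and 257, 931, 1094 and 1251 in OGTi libraries. Control replicate 2 and OGTi replicate 1 were each far below the other libraries of their group, and the log2 fold change of -0.05 ± 0.43 had an interval of -1.01 to 0.92 and adjusted p = 0.956. Whether the responses of Tgfbr1 and Tgfbr2 differ was not tested.

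Acvrl1, the type I receptor ALK1 for BMP9 and BMP10, had 129, 218, 153 and 139 scaled counts in control and 72.7, 89.3, 114 and 33.3 in OGTi libraries. The groups did not overlap, and OGTi replicate 4 was the lowest. Its log2 fold change was -1.13 ± 0.33 with adjusted p = 0.0384, a call kept under 5 of 12 alternative settings and lost on leaving out any 1 replicate, without the pairing, under upper-quartile scaling and with the length trend removed. Acvrl1 is best known from endothelium. Of 10 endothelial markers, 9 were tested and 2, Tek and Lyve1, were called lower (22.2%, where 10.2% of all genes tested were called lower). Of the 9 log2 fold changes 6 were negative and 3 positive, Pecam1 among the latter at 1.33 ± 0.78 with adjusted p = 0.274 and 0.03 to 0.31 TPM in control and 0.16 to 0.45 TPM in OGTi libraries. The summed TPM of the 10 markers was 1.57 to 3.40 in control and 0.37 to 1.4 in OGTi libraries. Tek had the highest level of them in control, at 0.56 to 1.59 TPM, and 0.03 to 0.23 TPM in OGTi libraries, and Lyve1 had 0.21 to 0.68 and 0 to 0.17 TPM, while Cdh5 and Erg were at 0 in most libraries and reached at most 0.08 and 0.02 TPM. The cells had been sorted on retinol autofluorescence, a gate for stellate cells. The part of endothelial cells in the value of Acvrl1, which itself lay at 1.83 to 3.09 TPM in control and 0.39 to 1.29 TPM in OGTi libraries, was not tested.

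Eng, which encodes the co-receptor endoglin, made up 88.4% to 92.9% of the summed receptor TPM in control and 89.2% to 92.3% in OGTi libraries, at 664 to 829 and 315 to 634 TPM. Endoglin is also known from endothelium, and the 10 endothelial markers together reached at most 3.40 TPM in any library. The part of endothelial cells in the value of Eng was not tested. The scaled counts of Eng were 44767 to 54899 in control and 30658 to 49141 in OGTi libraries, with a log2 fold change of -0.34 ± 0.17 and adjusted p = 0.198, and it was called lower when libraries were scaled by totals alone and in both TPM fits. The BMP type II receptor gene Bmpr2 had 1543 to 2458 and 1317 to 1635 scaled counts (log2 fold change -0.49 ± 0.23, adjusted p = 0.17). The type I receptor genes were each without a call: Bmpr1a had 599 to 743 and 469 to 966 (log2 fold change 0.18 ± 0.24, adjusted p = 0.676), Bmpr1b had 99.4 to 199 and 66.6 to 408 (0.54 ± 0.39, adjusted p = 0.383), and Acvr1 had 509 to 728 and 619 to 999 (0.34 ± 0.24, adjusted p = 0.359).

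Bambi, which encodes a decoy receptor that lacks a kinase, was uneven among the controls. It ranged over 217 to 1829 scaled counts in control, with control replicate 4 the lowest, and over 793 to 992 in OGTi libraries. The log2 fold change was 0.02 ± 0.49 with an interval of -1.06 to 1.11 and adjusted p = 0.982.

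**Figure D3:**
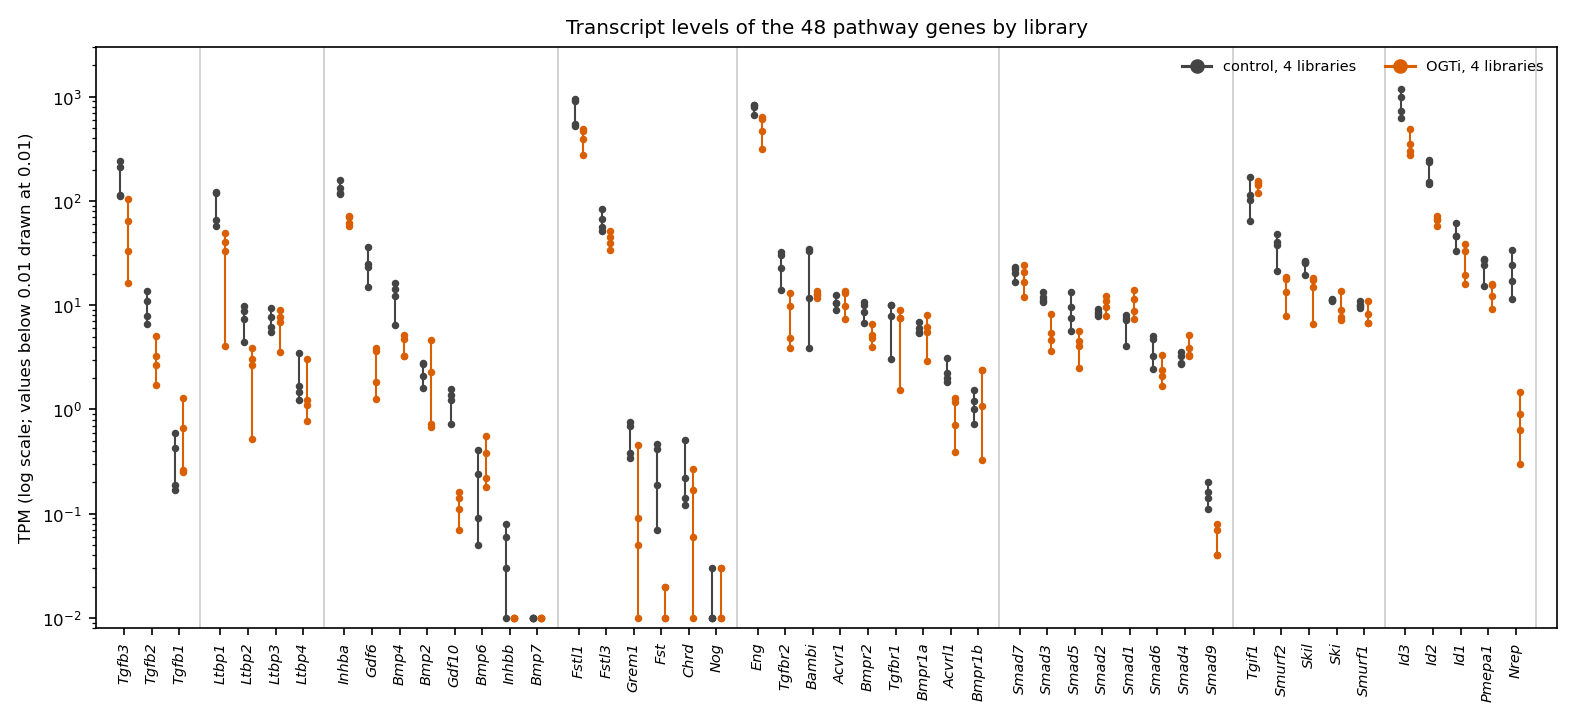
Transcript levels of the 48 pathway genes in TPM on a log axis, in the 4 control (grey) and 4 OGTi (orange) libraries, with lines from the lowest to the highest library and values below 0.01 drawn at 0.01. Id3, Fstl1 and Eng are the most abundant, and 8 of the 48 genes stay under 1 TPM in every library.

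Among the SMAD genes, Smad3 and Smad5 fell, while Smad2 and Smad4 had higher scaled counts in every OGTi library than in any control library without passing the test. Smad3 (chr9:63554049-63665476), a direct mediator of TGF-beta transcription, had 1014, 1055, 1221 and 1121 scaled counts in control and 491, 832, 636 and 533 in OGTi libraries. The controls lay close together, and OGTi replicate 2 was the nearest to them without overlap. The log2 fold change was -0.85 ± 0.23, 1.80-fold lower, with adjusted p = 0.0268, and the call was lost with the length trend removed and without replicate 1, 3 or 4. Smad5 (chr13:56850797-56890190), a BMP mediator, had 1025, 779, 1281 and 1814 scaled counts in control and 497, 668, 699.6 and 941 in OGTi libraries. Its groups overlapped, every pair fell, and the log2 fold change was -0.77 ± 0.23 with adjusted p = 0.0409, a call kept under 6 of 12 alternative settings and lost without the pairing, under upper-quartile scaling, with the length trend removed and without replicate 1, 3 or 4.

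Smad2, the other TGF-beta and activin mediator, had 1519, 1459, 1537 and 1681 scaled counts in control and 2098, 1908, 2861 and 2445 in OGTi libraries. The values of the groups did not overlap, as was the case in the higher direction for 2 of the 46 pathway genes and 11.5% of all genes tested. The log2 fold change was 0.57 ± 0.20, 1.49-fold higher, with adjusted p = 0.0808. Smad4, the shared partner of both branches, had 379.7, 486, 432 and 375 scaled counts in control and 777, 767, 582 and 547 in OGTi libraries, again without overlap. In TPM the groups overlapped for both genes, at 7.83 to 9.29 in control and 7.83 to 12.4 in OGTi libraries for Smad2 and at 2.74 to 3.55 and 3.29 to 5.17 for Smad4. The log2 fold change of Smad4 was 0.67 ± 0.22, 1.59-fold higher, with adjusted p = 0.0652. Smad2 and Smad4 were called higher under upper-quartile scaling, in DESeq2 and with the length trend removed, and not under the other 9 settings.

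Per length, Smad3 made up 17.8% to 19.2% of the summed SMAD TPM in control and 7.47% to 14.9% in OGTi libraries, whereas Smad2 made up 12.3% to 13.8% in control and 17.4% to 19.9% in OGTi. Neither set of shares overlapped between the groups, and the difference between the responses of the pair was not tested. Smad1, which mediates BMP signals, had 233 to 471 and 467 to 1007 scaled counts, with a log2 fold change of 0.96 ± 0.30 and adjusted p = 0.052. It was called higher under 5 of 12 alternative settings, namely upper-quartile scaling, DESeq2, no filter on low counts, the length trend removed and without replicate 2. Smad9 was scarce at 12.8 to 22.1 and 5.74 to 11.0 scaled counts (log2 fold change -1.11 ± 0.59, adjusted p = 0.227). The inhibitory SMAD genes were not called, with 130.1 to 275 and 110.3 to 198 scaled counts for Smad6 (log2 fold change -0.36 ± 0.26, adjusted p = 0.385) and 1169.6 to 1587 and 1200.3 to 2065 for Smad7 (0.13 ± 0.21, adjusted p = 0.739).

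Of the nuclear corepressors and ubiquitin ligases, Smurf2 fell and Tgif1 rose. Smurf2 (chr11:106710889-106811583) encodes a ligase that marks SMAD proteins and receptors for degradation. It had 3826, 2143, 3891 and 4785 scaled counts in control and 1158, 1953, 1674 and 2239 in OGTi libraries, and OGTi replicate 4 exceeded control replicate 2, whose pair changed least. Smurf2 was 2.07-fold lower (log2 fold change -1.05 ± 0.27), with adjusted p = 0.0229, a call lost without replicate 1, 3 or 4. Its exons share 935 bases with Cep95 on the opposite strand. The paralogue Smurf1 had 995 to 1171 and 856 to 1266 scaled counts, a log2 fold change of 0.00 ± 0.22 with an interval of -0.49 to 0.49, and adjusted p = 0.999.

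Tgif1 (chr17:71151192-71160541), a homeodomain repressor that binds SMAD2 and SMAD3, had 3568, 1996, 3124 and 5190.2 scaled counts in control and 7093, 4020.2, 5509 and 5641 in OGTi libraries. Every pair rose, least in replicate 4, and the groups overlapped. Tgif1 was 1.67-fold higher (log2 fold change 0.74 ± 0.22), with adjusted p = 0.0409, and the call was kept under 5 of 12 alternative settings. It was lost without the pairing, with scaling by totals alone, in both TPM fits and without replicate 1, 2 or 3. The SMAD corepressor genes Ski (1159 to 1240.1 and 1000.5 to 1591 scaled counts, log2 fold change 0.02 ± 0.21, adjusted p = 0.956) and Skil (2526 to 3458 and 1245 to 2949.6, log2 fold change -0.53 ± 0.26, adjusted p = 0.187) were not called.

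Of the 5 targets and other regulators among the pathway genes, Id2, Id3 and Nrep fell and Id1 and Pmepa1 were not called. The Id genes encode helix-loop-helix proteins that cannot bind DNA themselves and are classical targets of BMP signals. Id2 (chr12:25143798-25147282) had 3170.0, 3274, 4876 and 5207 scaled counts in control and 1811, 1576, 1784 and 1855 in OGTi libraries. The OGTi values lay close together and below every control, with a log2 fold change of -1.20 ± 0.21, 2.3-fold lower, and adjusted p = 0.00409, and Id2 was called under all 12 alternative settings. Id3 (chr4:135870808-135873066) had the highest level of the 48 genes in any library, at 1180.5 TPM, and lay at 624 to 1180.5 TPM in control and 277 to 496 TPM in OGTi libraries, where its range overlapped those of Eng and Fstl1. It had 9422, 15037, 17043 and 10615 scaled counts in control and 7600.0, 7976, 5590.3 and 5026 in OGTi libraries, without overlap. Id3 was 1.97-fold lower (log2 fold change -0.98 ± 0.23), with adjusted p = 0.0161, a call lost without replicate 2, 3 or 4. Id1 had 518 to 927 and 310.1 to 742 scaled counts (log2 fold change -0.53 ± 0.33, adjusted p = 0.31) and moved in different directions across the pairs. The summed TPM of the Id genes was 803 to 1476 in control and 368 to 602 in OGTi libraries.

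Nrep, a small protein known to raise the translation of TGF-betas, had the lowest adjusted p of the called genes. It had 452, 672, 1299 and 939 scaled counts in control and 17.4, 63.7, 45.2 and 29.9 in OGTi libraries, or 11.3 to 33.8 and 0.30 to 1.48 TPM. The lowest control exceeded the highest OGTi library by several fold. Nrep was 22.0-fold lower (log2 fold change -4.46 ± 0.34), with adjusted p = 0.000186, and Nrep was called under all 12 alternative settings, with a log2 fold change of -3.56 on the log2(TPM + 1) scale. Pmepa1, a TGF-beta target that limits the pathway, had 1427 to 2566 and 1236 to 1859 scaled counts (log2 fold change -0.50 ± 0.24, adjusted p = 0.188).

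**Figure D4:**
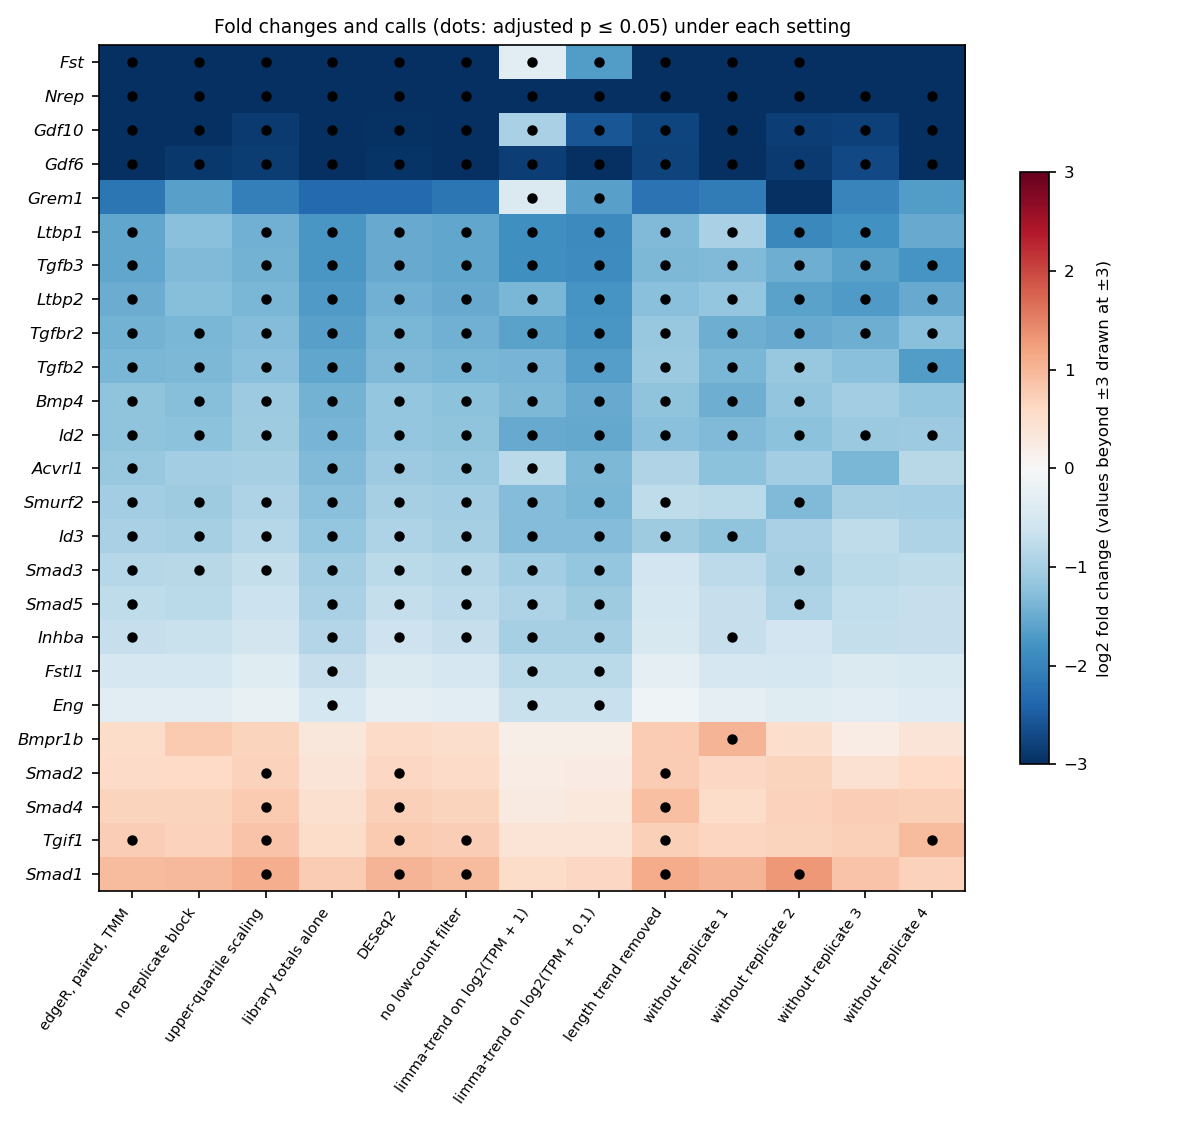
Log2 fold changes (colour, OGTi against control, drawn within ±3) and calls (black dots, adjusted p of at most 0.05) of the 25 pathway genes called under any of 13 settings, which are the paired edgeR fit and its 12 alternatives. Gdf6, Gdf10, Tgfbr2, Id2 and Nrep carry a dot in every column, and no gene called in the paired fit changes colour between blue and red.

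None of the 18 calls changed direction under the 12 alternatives, and 5 (Gdf6, Gdf10, Tgfbr2, Id2 and Nrep) kept their call under all of them. Leaving out replicate 3 or 4 removed the most calls: 8 of the 18 remained called without replicate 3 and 9 without replicate 4. Without the pairing 11 of the 18 remained, and the lost calls were those of Acvrl1, Inhba, Ltbp1, Ltbp2, Smad5, Tgfb3 and Tgif1.

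Another 71 genes of the same pathways were read from the same fit, of which 60 were tested and 16 were called, 5 higher and 11 lower (26.7%, where 18.4% of all genes tested were called). The median log2 fold change of the 60 was -0.07, with 28 positive and 32 negative values. The ligand list had 2 genes higher and 2 lower of 16, the receptor list 1 lower of 8, the extracellular regulators 1 higher and 5 lower of 20, and the intracellular regulators 2 higher and 3 lower of 16. Itgb6, the integrin subunit of a receptor that releases TGF-beta from its latent complex, had 59.7 to 113 scaled counts in control and 2.3 to 19.9 in OGTi libraries, a log2 fold change of -3.32 ± 0.47 with adjusted p = 0.00141. Bmper, a secreted BMP-binding regulator, fell, with 7765 to 18153 scaled counts in control and 1394 to 6033 in OGTi libraries (log2 fold change -1.75 ± 0.39, adjusted p = 0.0122). Bmp5, another BMP ligand, fell, with 4382 to 5943 scaled counts in control and 707 to 1355 in OGTi libraries (log2 fold change -2.44 ± 0.25, adjusted p = 0.000317), and the activin type II receptor gene Acvr2b fell, with 27.5 to 45.3 scaled counts in control and 2.21 to 7.17 in OGTi libraries (log2 fold change -2.81 ± 0.60, adjusted p = 0.0098). The calls of Bmper and Acvr2b were lost without replicate 4.

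Genes of these lists that rose included Gdf15, a stress-induced ligand distant from the rest of the family, with 1275 to 4005 scaled counts in control and 13434 to 21421 in OGTi libraries (log2 fold change 2.84 ± 0.33, adjusted p = 0.000589). Gdf9, known from oocytes, had 29.9 to 65.5 and 81.5 to 269.9 (1.68 ± 0.28, adjusted p = 0.00338). Zfyve9, which presents SMAD2 and SMAD3 to the receptor, rose, with 47.2 to 83.5 scaled counts in control and 149 to 307 in OGTi libraries (log2 fold change 1.79 ± 0.32, adjusted p = 0.00409), a call lost in the fit on log2(TPM + 0.1). Nedd4l, a ubiquitin ligase for phosphorylated SMAD2 and SMAD3, rose, with 239 to 702 scaled counts in control and 981 to 2498 in OGTi libraries (log2 fold change 1.75 ± 0.33, adjusted p = 0.00545). The groups did not overlap for any of these 4 genes. In the higher direction this held for 6 of the 60 tested genes of these lists and for 11.5% of all genes tested.

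Lrrc32, which encodes the docking protein GARP that holds latent TGF-beta on the cell surface, was singled out after its values were seen, for its level. It had 76338, 76074, 79368 and 81220.1 scaled counts in control and 16218, 50369.8, 48792 and 60986 in OGTi libraries, or 991 to 1077 and 146 to 660.0 TPM. The controls were nearly level and OGTi replicate 1 was far below the other OGTi libraries. Its log2 fold change was -0.97 ± 0.29 with adjusted p = 0.0405, and the call was lost without the pairing and without replicate 2, 3 or 4. Lrrc32 was not the most abundant of these other pathway genes. Dcn had 3103 to 7741 TPM in control and 2811 to 7465 TPM in OGTi libraries (log2 fold change 0.25 ± 0.16, adjusted p = 0.311). Thbs1 had 547 to 2144 and 187 to 2876 TPM (0.01 ± 0.40, adjusted p = 0.994).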

How the data were processed

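RNA-seq was performed on 4 control and 4 OGTi pMF-HSC cultures, grouped and numbered by their titles. Per the study's methods, paired-end reads of stranded poly(A) libraries were aligned by the authors to mm39 (GRCm39) with Bowtie2 2.3.5.1 and counted per gene with RSEM 1.3.1. The deposited tables hold expected counts, which RSEM estimates and which are not normalised, and the deposited TPM values, scaled for length and depth by the authors. A deposited comparison table with the authors' counts, normalised counts, fold changes and p-values was not used, and its 16 columns of per-sample values were left out. The methods name GENCODE, whereas transcripts in the tables carry RefSeq identifiers.

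Expected counts were rounded, and the 19963 of 40840 genes with a total of at least 10 counts were tested with edgeR 4.0.16 in R 4.3.3 (TMM scaling, quasi-likelihood F test, replicate number as a block). Benjamini-Hochberg adjustment ran over all genes tested, with calls at an adjusted p of at most 0.05. The standard error is the log2 fold change divided by the root of F. The biological coefficient of variation was 0.342. The block follows the study's methods. Across genes, deviations from group means correlated at 0.198, 0.280, 0.203 and 0.432 for same-numbered libraries and at -0.489 to 0.280 for the others. OGTi replicate 1 correlated more with control replicate 2 (0.280) than with control replicate 1 (0.198). Counting intervals cover counting error only.

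The 12 alternatives were no block, upper-quartile scaling, library totals alone, DESeq2 1.42.0, no low-count filter, limma 3.58.1 on log2(TPM + 1) and log2(TPM + 0.1), removal of the trend of fold change with gene length, and leaving out each replicate. The fits were also run on simulated data whose spread between replicates was set lower than in these data, and no result here rests on that run. Every pathway gene is named, values of every library are given for called genes and for Tgfb1, Tgfb2, Tgfb3, Tgfbr1, Tgfbr2, Smad2, Smad3 and Smad4, and of the other lists the called genes, at most 12 by size of change. The genes and lists were chosen with earlier results of these data known. Positions are from GENCODE vM39 (GRCm39) and promoters from RefSeq (GRCm38.p6).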

Additional observations from a re-analysis of the deposited data

Results flagged for a closer look

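In 92 groups of 4 scaled counts (46 genes in 2 groups), 4 held a library whose gap to the nearest other exceeded Dixon's 95% critical value, where chance gives about 4.6. Ltbp4 in OGTi replicate 4 was at 362 scaled counts and the other OGTi libraries at 113 to 139. Inhbb in OGTi replicate 4 was at 1.15, which is a single count, and the others at 0. Eng in control replicate 1 was at 44767 and the other controls at 53606 to 54899. Bambi in OGTi replicate 1 was at 992 and the other OGTi libraries at 793 to 827. None of these 4 genes was called in the paired edgeR fit.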

How the results depend on the processing

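The 12 alternatives left the direction of the 18 called pathway genes as it was. The replicate block mattered: with no pairing 11 pathway genes were lower and 0 higher, and 2991 of all genes were called, where the paired fit gave 17, 1 and 3666. The count of higher genes was 4 under upper-quartile scaling, 4 in DESeq2, 4 with the length trend removed, 2 with no low-count filter, and 0 with library totals alone and in both TPM fits. Leaving out a replicate gave 8 to 14 lower and 0 to 1 higher pathway genes, 7 to 16 other pathway genes (7 without replicate 4 and 10 without replicate 3, where 16 were called with all libraries) and 1905 to 3124 genes in all (1905 without replicate 3 and 1956 without replicate 4). The median over all genes was 0.13 under upper-quartile scaling, 0.14 with no filter, -0.19 with totals alone and -0.23 on log2(TPM + 0.1), where the pathway genes had medians of -0.39, -0.50, -0.71 and -0.74. The share of called genes that were higher was 44.3% in the paired fit, 54.2% under upper-quartile scaling, 30.1% with totals alone, 25.7% on log2(TPM + 1) and 26.2% on log2(TPM + 0.1).

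Log2 fold changes that turned sign all belonged to genes without a call. With totals alone they were -0.020 for Bmpr1a, -0.17 for Bambi, -0.069 for Smad7, -0.17 for Ski and -0.19 for Smurf1. In the fits on log2(TPM + 1) and log2(TPM + 0.1) they were -0.11 and -0.13 for Ltbp3, -0.12 and -0.15 for Bmpr1a, -0.28 and -0.26 for Bambi, -0.19 and -0.20 for Smad7, -0.27 and -0.30 for Ski, and -0.29 and -0.32 for Smurf1. With no pairing they were 0.18 for Bmp2, 0.015 for Tgfbr1 and -0.38 for Bambi. Upper-quartile scaling gave 0.027 for Ltbp4 and 0.071 for Tgfbr1, DESeq2 gave 0.00035 for Tgfbr1, removal of the length trend gave 0.18 for Ltbp4, 0.20 for Tgfbr1 and 0.12 for Ogt, and no filter gave -0.0057 for Smurf1. On leaving out a replicate the values ranged from -0.16 to 0.011 for Ltbp4, from -0.78 to 0.21 for Bmp2, from -0.51 to 0.51 for Tgfbr1, from -0.57 to 0.49 for Bambi, from -0.073 to 0.11 for Ski, from -0.088 to 0.11 for Smurf1 and from -0.37 to 0.086 for Ogt. The cause was not tested for any of these changes. On the log2(TPM + 1) scale, which understates changes of low genes, the log2 fold changes of Fst, Itgb6, Acvr2b, Nox4 and Zfyve9 were -0.34, -0.79, -0.19, -0.49 and 0.49, all of smaller size than in the paired fit. Genes of few counts, such as Fst, Inhbb, Grem1, Chrd and Smad9, had wide standard errors in the paired fit, at 0.59 to 1.72.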

Other observations

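A list of 20 genes known as TGF-beta targets, such as Ccn2, was read from the same edgeR fit, and 7 were called (35.0%, where 18.4% of all genes tested were called), 4 higher and 3 lower. Nox4, an NADPH oxidase gene, had 21.2 to 102.9 scaled counts in control and 4.59 to 19.9 in OGTi libraries, with a log2 fold change of -1.91 ± 0.50 and adjusted p = 0.0246, a call lost without the pairing and without replicate 1, 2 or 4. Adam12, a metalloproteinase gene, had 472 to 872 and 116 to 354 (log2 fold change -1.55 ± 0.34, adjusted p = 0.0108), a call lost without replicate 4. Il11, the gene of a cytokine, ranged widely between replicates, over 29.9 to 845 in control and 82.6 to 2831 in OGTi libraries, and rose in every pair (log2 fold change 1.76 ± 0.25, adjusted p = 0.00156), a call lost without the pairing. Tgfbi, which encodes a matrix protein, had 28.4 to 975 and 69.2 to 1668 (log2 fold change 1.17 ± 0.36, adjusted p = 0.0455), and its call was kept under 5 of 12 alternative settings. Of the other called targets, Cdkn1a and Junb were higher and Bhlhe40 was lower, named here because they complete the 7.

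Markers of other cells were summed in each library, and their counts of calls are read against the 8.13% of all genes tested that were called higher and the 10.2% called lower. Macrophage markers summed to 62.0 to 193 TPM in control and 94.6 to 237 TPM in OGTi libraries (1 of 10 higher, Cd68, and 1 lower, Cd14). In this list 1 gene reached 168 TPM, and 4 of the 10 stayed under 1 TPM in every library. Hepatocyte markers summed to 0.08 to 0.63 and 0.66 to 1.67 TPM (1 of 4 tested higher, Cyp2e1), and cholangiocyte and mesothelial markers to 92.3 to 148 and 58.3 to 99.2 TPM (Sox9 higher and Krt19 lower of 9 tested). Of the 10 cholangiocyte and mesothelial markers 1 reached 139 TPM, and 4 stayed under 1 TPM in every library. The part of these other cells in the pathway genes' values was not tested.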
